A study of Mus musculus with 6 samples.

Results

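The MAP kinase phosphatases are a group of dual-specificity phosphatases that switch off MAP kinases. Of this group, 7 genes (Dusp1, Dusp2, Dusp4, Dusp5, Dusp6, Dusp7 and Dusp10) were followed in mouse lymph node T cells. A probe set was taken as a member when the platform annotation gave it exactly 1 gene symbol and that symbol was one of the 7, which gave 10 probe sets of 45101 in the table, for 7 genes of the 18193 named there. Dusp7 had 3 probe sets, Dusp10 had 2, and the other 5 genes had 1 each. RNA was measured on 6 single-colour Affymetrix arrays, 3 of Ezh2 deficient lymph node T cells and 3 of Ezh2 fl/fl lymph node T cells. Ezh2 is the enzymatic subunit of Polycomb repressive complex 2, which methylates histone H3 at silenced genes, and fl/fl is the usual notation for alleles carrying loxP sites. The labels name no Cre line, strain, age, sex or treatment. They do not tie the samples to animals, and the p-values rest on the spread among 3 samples a group, part of which may be technical. In bulk RNA of this kind, fewer cells expressing a gene and less RNA per cell cannot be told apart.

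MAP kinases of the ERK, JNK and p38 families are activated when both a threonine and a tyrosine in their activation loop are phosphorylated, and these phosphatases remove both phosphates. Several of the genes are themselves induced by MAP kinase signalling and act as negative feedback. In T cells the pathway runs from the antigen receptor through Ras to ERK and, by parallel kinases, to JNK and p38.

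The targeted gene and the labelled cell type were checked first. The single Ezh2 probe set had normalised intensities of 282, 289 and 276 in Ezh2 deficient arrays, against 579, 684 and 801 in Ezh2 fl/fl arrays, so the groups did not overlap. Its log2 difference was -1.16 (SE 0.13), with an unadjusted limma p of 7.83e-06 and an adjusted p of 0.0705 among the 27022 probe sets tested. That adjusted limma p was 0.0421 under the deposited scaling, 0.0346 with array weights, 0.05 by robust eBayes and 0.0306 without Ezh2 fl/fl replicate 1, and it reached 0.263 without Ezh2 deficient replicate 3. All 13 T cell markers on the array passed the filter on dim probe sets, and their summed intensity was 108030 to 109580 in Ezh2 deficient arrays and 107770 to 110790 in Ezh2 fl/fl arrays, with 6 of the 13 higher in Ezh2 deficient arrays. The summed intensity of 9 B cell markers was 1453 to 1519 in Ezh2 deficient and 1326 to 1476 in Ezh2 fl/fl arrays, with 5 of the 9 higher in Ezh2 deficient arrays. That of 12 myeloid and dendritic cell markers was 2525 to 2790 in Ezh2 deficient and 2443 to 2678 in Ezh2 fl/fl arrays, with 5 of the 12 higher. That of 7 natural killer cell markers was 9675 to 10027 in Ezh2 deficient and 9558 to 10613 in Ezh2 fl/fl arrays, with 3 of the 7 higher. Most of this sum came from Nkg7, which averaged 6554 in Ezh2 deficient and 6970 in Ezh2 fl/fl arrays, so it says little about the dimmer markers. The summed intensity of 8 stromal and endothelial markers was 1958 to 2065 in Ezh2 deficient and 1831 to 2429 in Ezh2 fl/fl arrays, with 4 of the 8 higher. The ranges of the groups overlapped for each of the 5 marker sums, and no marker was at 0. Where 13.1% of all tested probe sets had groups that did not overlap, single markers also separated the groups though their sum did not. Of the natural killer cell markers these were Gzma, a granule protease, with a log2 difference of 0.63, and Klre1, a lectin-like receptor, at 0.34. Of the T cell markers it was Cd8b1, a chain of the CD8 coreceptor, at -0.17, and of the B cell markers Pax5, at 0.33. Of the myeloid and dendritic cell markers Cd74 was at 0.32, Fcgr3 at -0.41 and Csf1r at -0.42. Other tested probe sets of Csf1r were at 0.29 and 0.12. Of the stromal and endothelial markers 2 were higher and 1 lower without overlap. No tested marker was called, and the lowest adjusted limma p of each marker list ran from 0.581 to 0.751. Among the other natural killer cell markers Eomes was at 0.27, Prf1 at -0.0092 and Nkg7 at -0.087. Ncr1 and Klra8, dim and untested, were at -0.21 and -0.068. Whether other cells or the T cells themselves carried these marker differences was not tested. The part of any other cells in the results was not tested either. A first principal component with 30.6% of the variance set 1 array apart: the other 5 arrays ran from -15.0 to -1.47 and Ezh2 fl/fl replicate 1 stood at 41.4. Without that array no member was called either.

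The promoters of Dusp1 and Dusp5 are shown because Dusp1 had the smallest p of the members and Dusp5, also nuclear and inducible, ranked the arrays differently, and because their promoters carry different elements of the early response to signalling. Both sequences are the 250 bases before the annotated start, from RefSeq on GRCm38.p6. Dusp1 is at chr17:26508473-26508722 on the minus strand and Dusp5 at chr19:53528895-53529144 on the plus strand. Capitals mark a cAMP response element (TGACGTCA) in Dusp1 and a pair of adjoining CArG boxes, the binding motif of serum response factor, in Dusp5.
Dusp1: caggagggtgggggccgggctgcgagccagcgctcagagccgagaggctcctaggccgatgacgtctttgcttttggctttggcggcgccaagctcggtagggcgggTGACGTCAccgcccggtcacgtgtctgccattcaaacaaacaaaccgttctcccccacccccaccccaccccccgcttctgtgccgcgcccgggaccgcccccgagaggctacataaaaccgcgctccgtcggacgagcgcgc
Dusp5: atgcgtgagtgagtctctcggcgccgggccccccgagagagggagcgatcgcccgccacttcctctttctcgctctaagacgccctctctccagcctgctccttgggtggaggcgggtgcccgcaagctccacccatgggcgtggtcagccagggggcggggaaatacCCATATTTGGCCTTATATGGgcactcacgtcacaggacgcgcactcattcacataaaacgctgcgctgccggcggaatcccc

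The Dusp1 element begins 143 bases before the start, and the CArG boxes of Dusp5 begin 82 and 72 bases before it. Among 32851 promoter windows of the same length, TGACGTCA was present in 1.55% and a CArG box in 1.47%. The AP-1 motif (TGACTCA or TGAGTCA), present in 4.46%, was found in none of the 6 members matched in the promoter table (Dusp1, Dusp2, Dusp5, Dusp6, Dusp7 and Dusp10). All 3 motifs read the same on either strand, and they do not overlap with each other in these windows. The windows of Dusp2, Dusp6, Dusp7 and Dusp10 held none of the 3 motifs, which says only that these letters are absent from this stretch.

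None of the phosphatase genes passed the test between Ezh2 deficient and Ezh2 fl/fl T cells. Of the 10 probe sets, 9 passed the filter and were tested, and 0 were called by limma at an adjusted p under 0.05, where 0.00370% of all 27022 tested probe sets were called. Their adjusted p ran from 0.660 to 0.953. The log2 differences, Ezh2 deficient minus Ezh2 fl/fl, ran from -0.38 to 0.19, with 4 positive and 5 negative. Their median was -0.045, against -0.0029 over all tested probe sets, of which 49.3% were positive. Dusp7 enters that median with 3 probe sets, and with only the brightest probe set of each of the 6 tested genes the median was 0.045. The median over the 9 probe sets also turned to 0.024 with Ezh2 deficient replicate 3 left out, to 0.0074 with Ezh2 fl/fl replicate 2 left out and to 0.016 with Ezh2 fl/fl replicate 3 left out, so it has no settled sign. The median size of the difference, sign left out, was 0.080 for the members and 0.11 for all tested probe sets. At an unadjusted p under 0.05 stood 1 member, against 7.22% of all tested probe sets. It was Dusp1, on the higher side (3.84% of all tested probe sets), with 0 members on the lower side (3.38%). The groups did not overlap for 2 of the 9, where 13.1% of all tested probe sets did not overlap. These were Dusp1 on the higher side (6.55% of all) and a Dusp7 probe set on the lower side (6.54% of all). Fold changes are on the log2(intensity + 43.4) scale, which understates the change of dim probe sets, and no probe set's level is compared with another's.

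**Figure D1:**
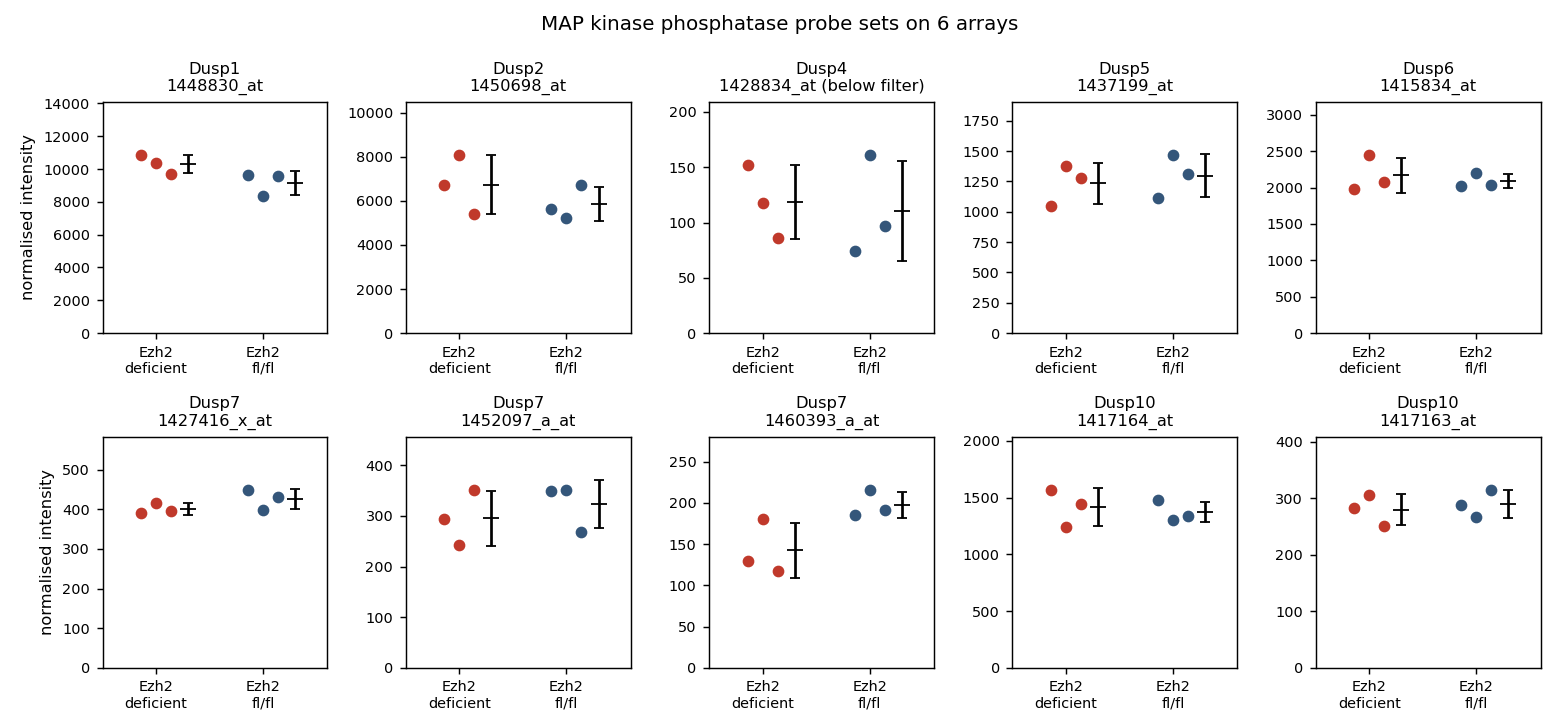
Normalised intensity (y axis, from 0) of each of the 10 probe sets on the 3 Ezh2 deficient arrays (red, left) and the 3 Ezh2 fl/fl arrays (blue, right), with the mean and SD in black. Of the 10, the groups are separate for Dusp1 and for Dusp7 1460393_a_at, and Dusp4 lies below the filter.

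The inducible nuclear phosphatases Dusp1, Dusp2, Dusp4 and Dusp5 come first. Dusp1, which acts on p38 and JNK as well as ERK and is induced within minutes of many stimuli, had 10843, 10340 and 9725 in Ezh2 deficient replicates 1, 2 and 3, against 9606, 8329 and 9562 in Ezh2 fl/fl replicates 1, 2 and 3. Every Ezh2 deficient value lay above every Ezh2 fl/fl value, though Ezh2 deficient replicate 3 and Ezh2 fl/fl replicate 1 lay close together. The means were 10302 ± 560 in Ezh2 deficient and 9166 ± 725 in Ezh2 fl/fl arrays (SD, n = 3 each). The log2 difference was 0.17 (SE 0.069), a fold of 1.12 with a 95% interval of 1.01 to 1.25. Its limma p was 0.0353 and its adjusted p 0.660, so it did not pass over all probe sets. The unadjusted p was above 0.05 by eBayes without trend (0.132), and likewise when Ezh2 deficient replicate 1 (0.126), Ezh2 deficient replicate 2 (0.0794) or Ezh2 fl/fl replicate 2 (0.129) was left out. The difference itself was 0.11 without Ezh2 fl/fl replicate 2 and 0.29 under median centring of the deposited scaling.

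Dusp2, a nuclear phosphatase found chiefly in haematopoietic cells, had 6741, 8081 and 5419 in Ezh2 deficient replicates 1, 2 and 3. Its values in Ezh2 fl/fl replicates 1, 2 and 3 were 5625, 5219 and 6705. The groups overlapped, since Ezh2 deficient replicate 3 lay below 2 of the Ezh2 fl/fl arrays. The log2 difference was 0.19 (SE 0.14, adjusted p = 0.789), a fold of 1.14 with a 95% interval of 0.921 to 1.42. Leaving out Ezh2 deficient replicate 2 gave 0.056. Leaving out Ezh2 deficient replicate 3 gave 0.34 with an unadjusted limma p of 0.0202, and the groups then did not overlap. The difference was 0.12 with Ezh2 fl/fl replicate 2 left out, 0.30 with Ezh2 fl/fl replicate 3 left out, and 0.30 under median centring of the deposited scaling. Single arrays thus moved this value by more than 1.5 times in either direction.

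Dusp4, a nuclear phosphatase of ERK and JNK, was dim on every array. It had 152, 118 and 85.7 in Ezh2 deficient arrays, against 73.9, 161 and 96.7 in Ezh2 fl/fl arrays. All Ezh2 deficient values lay inside the range of the Ezh2 fl/fl values. Its mean log2 value of 7.27 lay just under the filter at 7.29, so it was not tested in the main analysis. Without the filter its log2 difference was 0.092 (SE 0.27, adjusted p = 0.971). It turned to -0.083 when Ezh2 fl/fl replicate 1 was left out and to -0.055 when Ezh2 deficient replicate 1 was. It was 0.25 when Ezh2 deficient replicate 3 was left out, 0.32 when Ezh2 fl/fl replicate 2 was and 0.044 when Ezh2 fl/fl replicate 3 was.

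Dusp5, a nuclear phosphatase selective for ERK, had 1047, 1374 and 1278 in Ezh2 deficient replicates 1, 2 and 3. Its values in Ezh2 fl/fl replicates 1, 2 and 3 were 1114, 1466 and 1314. In each group replicate 1 was the lowest and replicate 2 the highest, though the replicate numbers pair no samples. The log2 difference was -0.072 (SE 0.13, adjusted p = 0.925), and the 95% interval of the fold was 0.779 to 1.16. The difference turned to 0.037 with Ezh2 deficient replicate 1 left out and to 0.017 with Ezh2 fl/fl replicate 2 left out.

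Dusp6 and Dusp7 encode cytoplasmic phosphatases selective for ERK. Dusp6, a widely used readout of ERK activity, had 1986, 2445 and 2074 in Ezh2 deficient arrays, against 2024, 2199 and 2037 in Ezh2 fl/fl arrays. Ezh2 deficient replicate 2 was the highest of the 6 and Ezh2 deficient replicate 1 the lowest, so the Ezh2 fl/fl values lay inside the range of the Ezh2 deficient ones. The log2 difference was 0.049 (SE 0.091, adjusted p = 0.927), with a 95% interval of the fold of 0.898 to 1.19. It turned to -0.039 without Ezh2 deficient replicate 2.

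The 3 Dusp7 probe sets all had negative differences, of unequal size. The brightest, 1427416_x_at, whose name marks probes that may match other transcripts, had 390, 417 and 397 in Ezh2 deficient and 449, 399 and 432 in Ezh2 fl/fl arrays (log2 difference -0.080, SE 0.11, adjusted p = 0.895). Probe set 1452097_a_at had 294, 243 and 352 in Ezh2 deficient and 350, 351 and 268 in Ezh2 fl/fl arrays (log2 difference -0.11, SE 0.16, adjusted p = 0.899). The groups overlapped on both of these. For 1427416_x_at the difference was -0.046 with Ezh2 fl/fl replicate 1 left out and -0.12 with Ezh2 fl/fl replicate 2 left out, and the groups no longer overlapped when Ezh2 deficient replicate 2 (-0.11) or Ezh2 fl/fl replicate 2 was left out. For 1452097_a_at it was 0.0019 without Ezh2 deficient replicate 2, -0.059 and -0.057 when Ezh2 fl/fl replicate 1 or 2 was left out, and -0.23 when Ezh2 deficient replicate 3 or Ezh2 fl/fl replicate 3 was. The dimmest, 1460393_a_at, had 130, 181 and 118 in Ezh2 deficient arrays, against 186, 216 and 191 in Ezh2 fl/fl arrays. Here every Ezh2 deficient value lay below every Ezh2 fl/fl value, with Ezh2 deficient replicate 2 close to the lowest Ezh2 fl/fl array. Its log2 difference was -0.38 (SE 0.17, 95% interval -0.77 to 0.0059), with a limma p of 0.0529 and an adjusted p of 0.695. The unadjusted p fell below 0.05 by eBayes without trend (0.0290), under the deposited scaling (0.0328) and without Ezh2 deficient replicate 2 (0.0167). It was higher, at 0.127, 0.160 and 0.139, when Ezh2 deficient replicate 1, Ezh2 deficient replicate 3 or Ezh2 fl/fl replicate 2 was left out. The difference itself was -0.23 with a pseudocount 4 times higher.

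Dusp10 encodes a phosphatase selective for JNK and p38. Its brighter probe set, 1417164_at, had 1567, 1242 and 1443 in Ezh2 deficient arrays, against 1476, 1304 and 1336 in Ezh2 fl/fl arrays (log2 difference 0.041, SE 0.10, adjusted p = 0.944). Its other probe set, 1417163_at, had 283, 305 and 250 in Ezh2 deficient and 287, 266 and 314 in Ezh2 fl/fl arrays (log2 difference -0.045, SE 0.13, adjusted p = 0.953). The groups overlapped on both probe sets, which differed in sign. Each sign also turned when an array was left out, to -0.033 for 1417164_at when it was Ezh2 deficient replicate 1. For 1417163_at it turned to 0.021 when Ezh2 deficient replicate 3 was left out and to 0.0085 when Ezh2 fl/fl replicate 3 was.

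**Figure D2:**
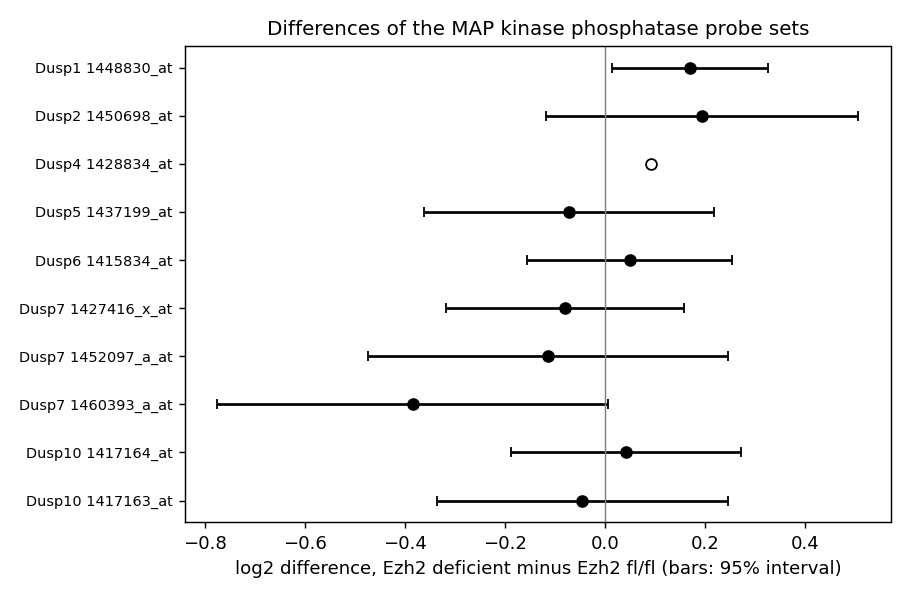
Log2 difference, Ezh2 deficient minus Ezh2 fl/fl (x axis), of each probe set (rows), with its 95% interval from limma, and Dusp4 as an open circle with no interval because it was not tested. The interval of Dusp1 lies just above 0, from 0.014 to 0.32, and the other 8 intervals include 0.

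These intervals bound the difference of each probe set by itself, without adjustment for the number of probe sets tested. They do not set what could have been called at an adjusted p under 0.05. Ezh2, with a log2 difference of -1.16, had an adjusted limma p of 0.0705 and was not called in the main analysis. For the brightest probe set of each tested gene, the upper 95% bound of the fold was 1.25 for Dusp1, 1.42 for Dusp2, 1.16 for Dusp5, 1.19 for Dusp6, 1.12 for Dusp7 and 1.21 for Dusp10. The lower bound was a fold of 0.921 for Dusp2, 0.779 for Dusp5, 0.898 for Dusp6, 0.802 for Dusp7 and 0.878 for Dusp10. Dusp7 1460393_a_at reached down to a fold of 0.584. A missed threshold within these bounds does not show that the groups were alike.

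The members did not share a common pattern across arrays. Relative to the Ezh2 fl/fl mean on the log2 scale, the median of the 9 tested probe sets was -0.069, 0.067 and -0.014 in Ezh2 deficient replicates 1, 2 and 3, and -0.0066, -0.069 and 0.019 in Ezh2 fl/fl replicates 1, 2 and 3. Ezh2 deficient replicate 1 had the highest Dusp1 value of the 6 arrays, at 0.24 above the Ezh2 fl/fl mean, and the lowest Dusp5 value, at -0.29. Ezh2 deficient replicate 2 had the highest Dusp2 value at 0.47 and the highest Dusp6 value at 0.23. The SD over the 6 arrays was 0.27 for Dusp7 1460393_a_at, 0.24 for Dusp2, 0.20 for Dusp7 1452097_a_at, 0.18 for Dusp5, 0.13 for Dusp1, 0.12 for Dusp10 (1417164_at), 0.11 for Dusp6 and 0.073 for Dusp7 1427416_x_at, against a median of 0.17 over all tested probe sets. Among the leading probe sets of these 6 genes, the root mean square distance between centred log2 profiles was largest for Dusp2 with Dusp5, at 0.28. It was smallest for Dusp5 with Dusp6, at 0.120, but nearly as small for Dusp6 with Dusp7, at 0.123. The Pearson correlations of these pairs were 0.68 for Dusp5 with Dusp6 and -0.048 for Dusp6 with Dusp7. Over all pairs they ran from -0.90 for Dusp5 with Dusp10 to 0.69 for Dusp1 with Dusp2.

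For the 3 genes of largest SD, ranked on the brightest probe set of each tested member, the genes with the closest centred profiles over the 6 arrays were found among 22001 probe sets. Nearest to Dusp2 were Ccdc181 at a distance of 0.049, Tnfsf4, which encodes the ligand of the costimulatory receptor OX40, at 0.051, and Cd80, a costimulatory ligand of CD28 and CTLA-4, at 0.064. Nearest to Dusp5 were Axin1, a scaffold of the beta-catenin destruction complex, at 0.032, Psat1, an enzyme of serine synthesis, at 0.036, and the centrosomal protein gene Cntrl at 0.040. Nearest to Dusp1 were Pcgf5, which encodes a Polycomb repressive complex 1 component, at 0.020, Fam168a at 0.026, and Gpcpd1 at 0.028. With 6 arrays and so many probe sets close profiles turn up readily, so these distances describe these arrays only.

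The rest of the MAP kinase pathway was read from 6 lists, with each gene represented by its brightest probe set. Of 114 listed genes on the array 101 were tested, and 0 were called by limma at an adjusted p under 0.05, where 0 of all 12275 tested genes were called on these probe sets. At an unadjusted p under 0.05 stood 4 genes on the higher side and 4 on the lower (3.92% and 4.29% of all tested genes). Of all tested genes 46.9% had a positive difference, with a median of -0.010. The medians of 3 lists changed sign with the scaling: that of the MAP kinases was 0.016 and that of the other Ras and ERK inhibitors 0.062 under median centring of the deposited scaling, and that of the other phosphatases was -0.022 under the deposited scaling itself. The medians of 4 lists also changed sign when a single array was left out, as given with each list.

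Among 7 MAP kinases, 3 were higher and 4 lower, with a median log2 difference of -0.061. That became 0.0080 with Ezh2 deficient replicate 3 left out, -0.17 with Ezh2 deficient replicate 2 left out, and -0.0071 and -0.16 when Ezh2 fl/fl replicate 1 or 3 was. Mapk11, a p38 isoform, averaged 468 ± 73.6 in Ezh2 deficient and 592 ± 28.0 in Ezh2 fl/fl arrays (log2 difference -0.32, adjusted p = 0.648), while its other probe set was at 0.18. Mapk7, which encodes ERK5, was at -0.34 and the dim Mapk15 at -0.43 (each adjusted p = 0.712). Of the list 1 gene, Mapk11, had an unadjusted p under 0.05.

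Among 22 genes of the upstream cascade, from Ras activators to MAP kinase kinases, 17 were higher and 5 lower, and the median was 0.11, with 2 higher and 0 lower at an unadjusted p under 0.05. The list's median, relative to the Ezh2 fl/fl mean, was 0.082, 0.086 and 0.11 in Ezh2 deficient replicates 1, 2 and 3, and -0.00037, 0.027 and -0.026 in Ezh2 fl/fl replicates 1, 2 and 3. Map2k6, a kinase that activates p38, averaged 372 ± 25.8 in Ezh2 deficient and 268 ± 65.8 in Ezh2 fl/fl arrays (log2 difference 0.44, adjusted p = 0.646). The kinase gene Braf was at 0.21 (adjusted p = 0.692), with its 8 other tested probe sets from -0.099 to 0.26, and Sos2, a Ras exchange factor, was at 0.24 (adjusted p = 0.700). When a gene was represented by the mean over its tested probe sets, 13 of the 22 were higher. Under median centring of the deposited scaling the list's median was 0.18 with 21 of the 22 higher. The median of all tested probe sets also rose there, to 0.051 from -0.0029 in the main analysis. Without Ezh2 deficient replicate 1 the list's median was 0.074 with 15 higher.

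Among 17 MAP kinase substrates, 10 were higher and 7 lower, and the median was 0.012. It was 0.049 without Ezh2 fl/fl replicate 1, 0.043 under the deposited scaling and 0.11 with that scaling median centred. Mapkapk3, a kinase downstream of p38, averaged 691 ± 9.50 in Ezh2 deficient and 803 ± 29.8 in Ezh2 fl/fl arrays (log2 difference -0.20, adjusted p = 0.683). Its second probe set was at -0.31. The related Mapkapk2 was at 0.24 and the nuclear kinase gene Rps6ka5 also at 0.24 (each adjusted p = 0.716). The other tested Rps6ka5 probe set was at 0.18.

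Of the other phosphatases acting in or near this family, 18 were tested, with 11 higher, 7 lower, a median of 0.021, and 0 at an unadjusted p under 0.05. The smallest p belonged to Dusp15 at -0.25, Dusp12 at 0.13 and the dim Dusp18 at 0.53, whose adjusted p were 0.833, 0.840 and 0.840. The other tested Dusp12 probe set was at -0.012. The median turned to -0.014 when Ezh2 fl/fl replicate 2 was left out and to -0.011 when Ezh2 fl/fl replicate 3 was. Of 12 other inhibitors of Ras and ERK signalling, 5 were higher and 7 lower, the median was -0.015, and 0 had an unadjusted p under 0.05. That median turned to 0.011 when Ezh2 deficient replicate 1 was left out, to 0.020 when Ezh2 deficient replicate 3 was and to 0.026 when Ezh2 fl/fl replicate 2 was. Spred1, which restrains Raf activation, was at 0.25 (adjusted p = 0.731), the Ras GTPase activator gene Rasal3 at -0.059 and the feedback inhibitor gene Spry1 at 0.088. Other tested Spred1 probe sets ran from -0.15 to 0.37, and the other one of Rasal3 was at -0.087.

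Among 25 immediate early genes, which are switched on by the same signals as several of the phosphatases, 15 were higher and 10 lower, and the median was 0.033, with 2 on each side at an unadjusted p under 0.05. The median was -0.017, with 10 genes higher, when Ezh2 deficient replicate 1 was left out, and 0.010 when Ezh2 fl/fl replicate 3 was. Cd69 was at 0.39 (adjusted p = 0.311). Egr2, a transcription factor induced by antigen receptor signalling, averaged 799 ± 39.5 in Ezh2 deficient and 661 ± 26.5 in Ezh2 fl/fl arrays (log2 difference 0.26, adjusted p = 0.636). Its second probe set was at 0.29. Ier5 averaged 4517 ± 136 in Ezh2 deficient and 5055 ± 119 in Ezh2 fl/fl arrays (log2 difference -0.16, adjusted p = 0.633). Its other tested probe sets were at -0.25 and -0.029. The list's median, relative to the Ezh2 fl/fl mean, was 0.085, 0.032 and -0.040 in Ezh2 deficient replicates 1, 2 and 3, the order in which Dusp1 also stood in them. In Ezh2 fl/fl replicates 1, 2 and 3 it was 0.021, -0.034 and 0.0085, which again was the order of Dusp1. Across the groups the orders differed. Ezh2 deficient replicate 3 had the lowest list median of all arrays, but a Dusp1 value above every Ezh2 fl/fl array. The part of this early response in the Dusp1 difference was not tested.

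**Figure D3:**
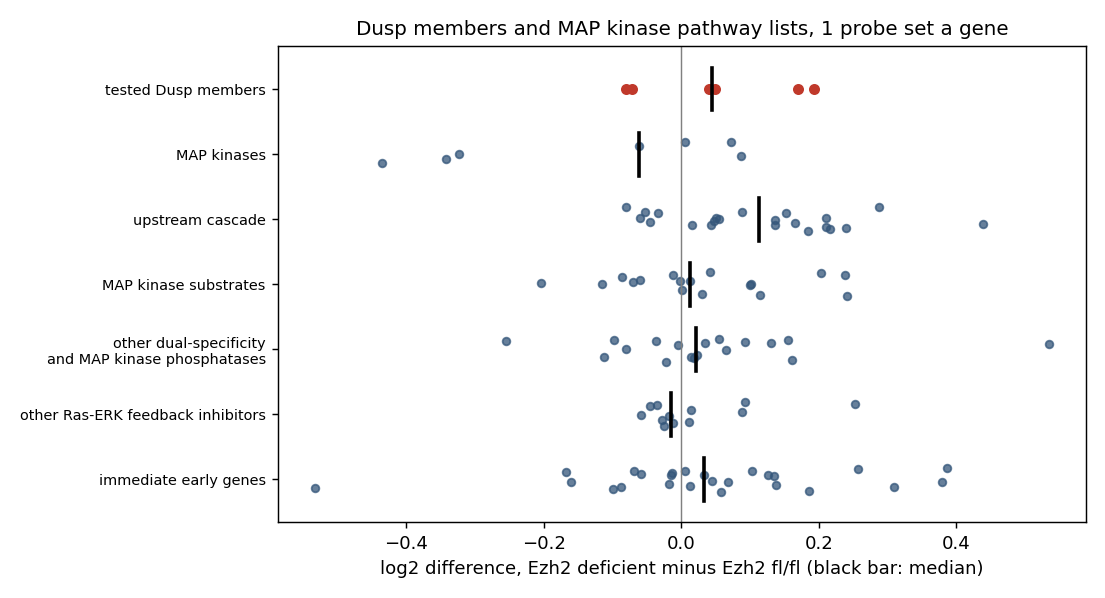
Log2 difference, Ezh2 deficient minus Ezh2 fl/fl (x axis), of the brightest probe set of each of the 6 tested Dusp genes (red) and of the genes of 6 MAP kinase pathway lists (blue), with each row's median as a black bar. The medians lie between -0.061 for MAP kinases and 0.11 for the upstream cascade, and each row holds differences on either side of 0.

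No sign of a tested member changed under the 9 other settings, whereas 5 of the 9 tested probe sets changed sign when some single array of the 6 was left out.

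**Figure D4:**
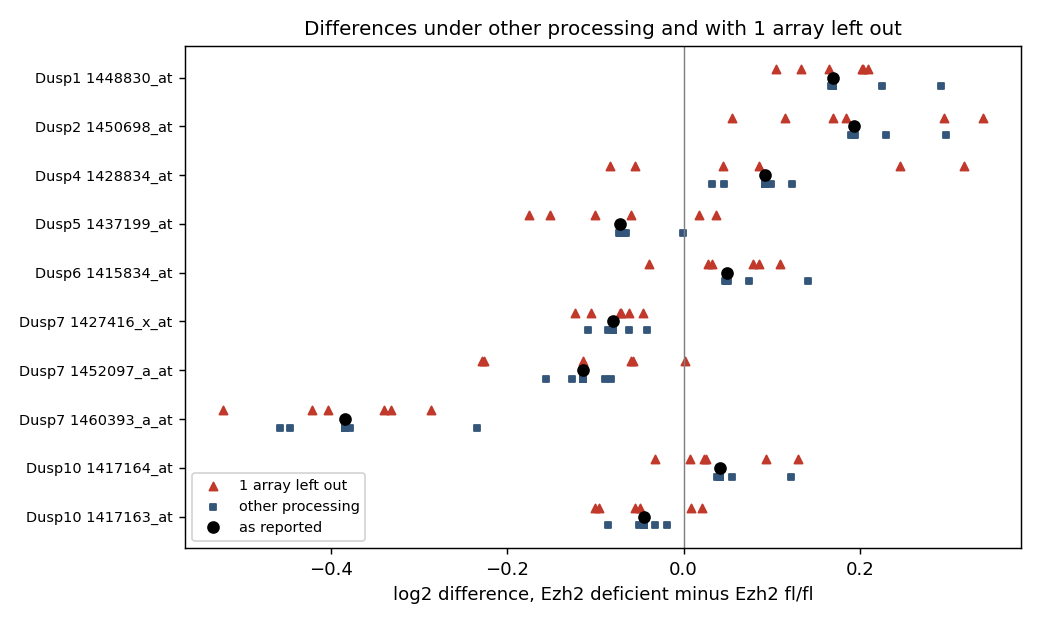
Log2 difference, Ezh2 deficient minus Ezh2 fl/fl (x axis), of each member probe set (rows) as reported (black), with each of the 6 arrays left out (red triangles) and under 9 other processing settings (blue squares). Dusp1, Dusp2 and 2 of the 3 Dusp7 probe sets stay on 1 side of 0, and the other 6 probe sets cross it.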

How the data were processed

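The authors deposited linear intensities, 1 per probe set and array. The software behind them is not given in the sources used here. Every array had a trimmed mean of 500.002 after dropping the outer 2% on both sides. The arrays were quantile normalised and turned into log2(intensity + 43.4), the 20th percentile of all values. The 64 control probe sets and those with a mean log2 value under the 40th percentile were left out, leaving 27022. Groups were compared with limma 3.58.1 in R 4.3.3 (eBayes with trend, 4 residual degrees of freedom per probe set, no covariate, two-sided, Benjamini-Hochberg over all 27022). The limma step was tested on simulated data. Robust eBayes used statmod 1.5.0. Names came from the platform annotation, and all 10 member probe sets matched RefSeq by gene identifier. The members and lists were chosen with earlier results of these data known. Named were all member probe sets, Ezh2, for each list any called genes (if none, the 3 of smallest p), and, for the 3 members of largest SD on their brightest probe sets, the 3 genes of nearest profile. Alternatives were unchanged deposited scaling, median centring of it, pseudocounts 4 times lower and higher, the filter moved to the 60th percentile or dropped, eBayes robust or without trend, array weights, each array left out and, for lists, a gene's mean over its probe sets. The number of arrays limits the precision.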

Additional observations from a re-analysis of the deposited data

How the results depend on the processing

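No member probe set was called under any of the 15 alternatives or at an adjusted p under 0.10, and 0 of the pathway genes were called under the 16 run for them. The Ezh2 difference kept its direction and an unadjusted p under 0.05 throughout, from -1.29 to -0.91, but its adjusted p, 0.0705 as reported, ran from 0.0306 to 0.263. The number of members at an unadjusted p under 0.05, which was 1, became 2 under the deposited scaling and ran from 0 to 2 with 1 array left out. By eBayes without trend it was again 1, but this was Dusp7 1460393_a_at in place of Dusp1. The number of members whose groups did not overlap, 2, was 1 with the filter at the 60th percentile, which left out Dusp7 1460393_a_at, and 2 to 3 with 1 array left out, where smaller groups overlap less often (22.0% to 24.9% of all probe sets did not overlap). Between 4 and 6 members were positive. Signs turned only in runs that left out an array: Dusp5 ran from -0.18 to 0.037 in them, Dusp6 from -0.039 to 0.11, Dusp7 1452097_a_at from -0.23 to 0.0019, Dusp10 1417164_at from -0.033 to 0.13 and Dusp10 1417163_at from -0.10 to 0.021. Among these, Dusp5 was also positive at 0.017 without Ezh2 fl/fl replicate 2, and Dusp10 1417163_at at 0.0085 without Ezh2 fl/fl replicate 3. Median centring moved the median of all probe sets to 0.051, a shift as large as the Dusp6 and Dusp10 differences. No paired analysis was possible because the titles count through all 6 arrays, so that the groups share no number.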
